A study of Mus musculus with 2 samples.

Results

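The genes described here are the hedgehog ligand gene Shh, the receptor and inhibitor genes Ptch1 and Hhip, the co-receptor genes Boc, Cdon and Gas1, and the transcription factor genes Gli1, Gli2 and Gli3. They were taken from the count table by symbol, and all 9 were found among its 22423 genes, each on 1 row. RNA came from C57BL/6 cerebellum at postnatal day 3. The control group (Ctrl) carried floxed Prdm16 alleles (Prdm16fl/fl), and the other group was a Prdm16 conditional knockout (cKO). The labels name no Cre driver, deleted exon or sex, and say nothing on pooling of animals. The series design mentions triplicates, while the table holds 1 column of counts per genotype, so each genotype is treated as 1 library. The name of the table carries the number 2 after cKO and 1 after Ctrl, which the labels do not explain. No difference below has a replicate check, and whether it belongs to the genotype or to the particular libraries cannot be told apart.

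Sonic hedgehog is secreted in the young cerebellum by Purkinje cells and drives granule neuron progenitors, which lie in the external granular layer, to divide. Without ligand, the receptor Ptch1 holds the transducer Smo inactive. Ligand binding releases Smo, and the signal passes through the primary cilium to the Gli zinc finger factors. Gli2 is the main activator that responds first, Gli3 acts largely as a repressor, and Gli1 is an activator whose own gene is switched on by the pathway. Ptch1 and Hhip are also pathway targets, and their products bind ligand and limit it. Boc, Cdon and Gas1 are cell surface proteins that bind Shh together with Ptch1 and help reception. The title of the series places Shh and Gli1 downstream of Prdm16, so the question put to these genes is whether their transcripts differ between the genotypes.

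The Gli genes are paralogues, and reads from a stretch that they share could be assigned to the wrong gene. Coding sequences from GENCODE M21 (build GRCm38, which differs from the mm9 build named in the submitters' processing notes) were therefore compared. The longest identical run was 23 bases between Gli1 and Gli2, 14 bases between Gli1 and Gli3, and 25 bases between Gli2 and Gli3. The 90 coding bases around the Gli2 and Gli3 run are shown because they hold the longest identity in the family. Capitals mark the 60 positions at which all 3 genes carry the same base. Each stretch crosses a splice junction, so its coordinates include an intron.
Gli1, exons 8 and 9, minus strand, chr10:127336025-127336413: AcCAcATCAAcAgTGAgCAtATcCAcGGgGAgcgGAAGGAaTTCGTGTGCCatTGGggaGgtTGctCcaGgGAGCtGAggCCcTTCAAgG
Gli2, exons 9 and 10, minus strand, chr1:118845979-118848384: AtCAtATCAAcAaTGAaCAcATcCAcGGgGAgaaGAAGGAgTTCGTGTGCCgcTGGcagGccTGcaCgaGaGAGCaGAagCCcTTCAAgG
Gli3, exons 10 and 11, plus strand, chr13:15662529-15713586: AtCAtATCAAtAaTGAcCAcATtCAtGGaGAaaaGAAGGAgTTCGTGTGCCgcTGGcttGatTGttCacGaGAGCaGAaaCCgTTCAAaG
In this stretch Gli1 matched Gli2 at 70 of 90 bases and Gli3 at 62, and Gli2 matched Gli3 at 73. The co-receptor genes Boc and Cdon shared a longest coding run of 31 bases. The sources used here do not give the read length.

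The libraries held 18600299 reads over genes in Ctrl and 17501279 in cKO. Differences are given as log2 of cKO over Ctrl after scaling by edgeR's trimmed mean of M-values method (TMM), with a 95% exact interval in parentheses that covers counting error only. The targeted gene Prdm16 had 315 Ctrl reads and 118 cKO reads, a log2 ratio of -1.30 (-1.62 to -0.99). The libraries also differed in ways that the labels do not record. Xist, the RNA that coats the inactive X chromosome, had 14779 Ctrl and 21 cKO reads, and all 4 Y-linked genes on the list were higher in cKO. Of 14 choroid plexus markers, 14 had ratios below 0, where 51.3% of genes with at least 10 reads stood above 0. The summed level of the 14 markers was 6097 CPM (counts per 1000000 reads, TMM-scaled) in Ctrl against 191.9 CPM in cKO. The part of sex and of choroid plexus content in the results below was not tested. Whether the lower choroid plexus markers belong to the genotype or to dissection cannot be told apart.

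Gli1 had the highest ratio of the 9 genes. It had 1901 reads in the Ctrl library and 2279 in the cKO library, or 101 CPM (96.6 to 106) against 132 CPM (126 to 137). These levels did not overlap within their counting intervals, and the log2 ratio was 0.38 (0.29 to 0.47), a 1.30-fold higher level in cKO. In a whole tissue, more cells of the type that expresses Gli1 and more Gli1 RNA per cell cannot be told apart. Gli2 stood close behind with 1579 and 1830 reads, or 84.0 CPM (79.9 to 88.3) against 106 CPM (101 to 111). It was 1.26-fold higher in cKO, with a log2 ratio of 0.33 (0.23 to 0.43). Gli3, the repressor of the family, had 431 and 377 reads. Its levels of 22.9 CPM (20.8 to 25.2) and 21.8 CPM (19.6 to 24.1) overlapped, and its log2 ratio was -0.08 (-0.28 to 0.13).

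Shh itself was the least abundant of the genes by reads, with 92 in Ctrl and 99 in cKO. This gave 4.89 CPM (3.95 to 6.00) and 5.72 CPM (4.65 to 6.96), levels that overlapped, and a log2 ratio of 0.22 (-0.20 to 0.65). At this depth a ligand level anywhere between 0.870 and 1.57 times that of Ctrl could not be set apart. Gene models on the opposite strand lie over 446 and 361 of the 2847 exonic bases of Shh in GENCODE M21. These are 9530036O11Rik, with 12 Ctrl and 13 cKO reads, and Gm26894, with 13 and 4. Strand use in counting is not given, so reads there are uncertain.

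The receptor gene Ptch1 had 2164 reads in Ctrl and 2112 in cKO. Its levels of 115 CPM (110.3 to 120.1) and 122 CPM (117 to 127) overlapped, with a log2 ratio of 0.08 (-0.0042 to 0.17). Hhip, which encodes a membrane-anchored decoy that captures ligand, had the lowest log2 ratio of the 9 genes. It had 307 and 227 reads, or 16.3 CPM (14.6 to 18.3) against 13.1 CPM (11.5 to 14.9), levels whose intervals just overlapped. The Hhip log2 ratio was -0.32 (-0.57 to -0.07), with the interval of the ratio itself below 0. Of the pathway targets among the 9 genes, Gli1 was thus higher, Hhip was lower and the Ptch1 interval included 0.

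**Figure D1:**
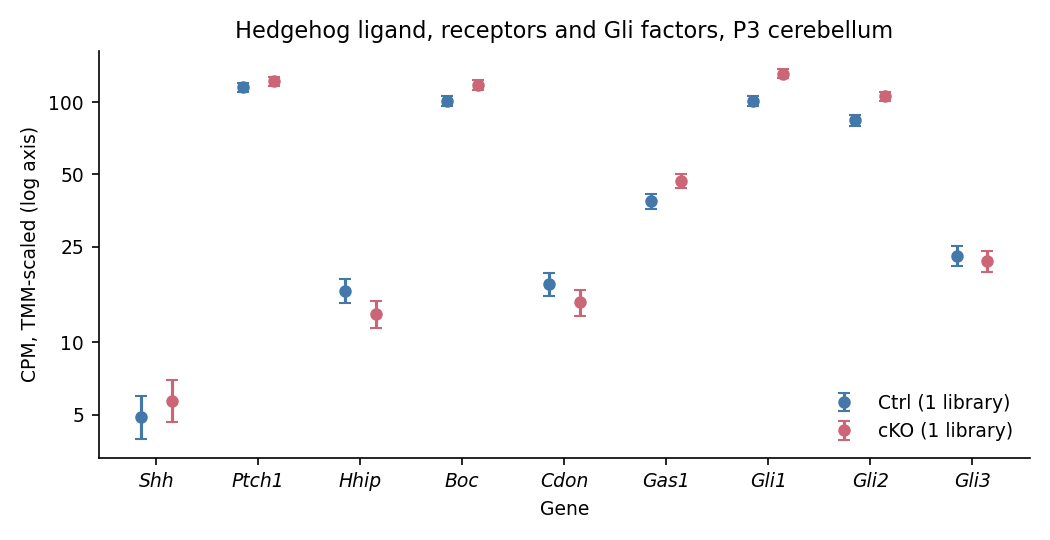
Level of each gene in the Ctrl library (blue) and the cKO library (red), as TMM-scaled CPM on a log axis. Points are single libraries and bars are 95% Poisson intervals for counting error. The bars are apart for Gli1, Gli2, Boc and Gas1, with cKO higher, and overlap for Shh, Ptch1, Hhip, Cdon and Gli3. The share of all genes with bars apart was not computed. Intervals of the ratio, a different rule, lay above 0 for 25.4% of genes with at least 500 reads.

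The 3 co-receptor genes differed among themselves. Boc, an immunoglobulin superfamily protein, had 1900 and 2042 reads, or 101 CPM (96.6 to 106) in Ctrl and 118 CPM (113 to 123) in cKO. Its log2 ratio was 0.22 (0.13 to 0.31). Gas1, a GPI-anchored protein, had 726 and 812 reads, or 38.6 CPM (35.9 to 41.5) and 46.9 CPM (43.7 to 50.2), with a ratio of 0.28 (0.13 to 0.43). Both were therefore higher in the cKO library beyond counting error. Cdon, the closest relative of Boc, had fewer reads in cKO, 254 against 329. Its levels of 17.5 CPM (15.7 to 19.5) and 14.7 CPM (12.9 to 16.6) overlapped, although the interval of the ratio itself lay just below 0, at -0.26 (-0.50 to -0.01). For Gas1, 589 of 2961 exonic bases lie under the opposite-strand model Gm48488, which had 10 and 8 reads.

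Of the 9 genes, 0 reached a 2-fold difference with an interval that excluded 1, a rule passed by 3.42% of the 18787 genes with at least 10 reads. Intervals lay above 0 for 4 genes (Gli1, Gli2, Boc and Gas1) and below 0 for 2 (Hhip and Cdon), while 3 included 0. Over all compared genes, 17.0% had an interval above 0 and 15.5% below. Deeper genes have narrower intervals, and among the 10160 genes with at least 500 reads these shares were 25.4% and 20.0%. All of the genes but Shh belong to that deeper set. At a threshold of 0.32 either way on the log2 scale, 2 of these 8 were higher, Gli1 and Gli2, beside 3.77% of the deeper genes, and 0 were lower, beside 4.39%. With library totals as the only scaling, Gli2 did not reach this threshold at 0.30 and Hhip passed as lower at -0.35. The 99% intervals of Hhip and Cdon included 0.

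Ranked among the 10160 deeper genes, 1.89% had a log2 ratio at or above that of Gli1 and 3.39% at or above that of Gli2. The corresponding share was 5.91% for Gas1 and 10.9% for Boc. At the other end, 4.53% of the deeper genes stood at or below Hhip and 7.57% at or below Cdon. The quartiles of the deeper genes lay at -0.10 and 0.13, and Ptch1 and Gli3 fell between them. The median over the 9 genes was 0.22, against 0.02 over the deeper genes and 0.01 over all compared genes.

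**Figure D2:**
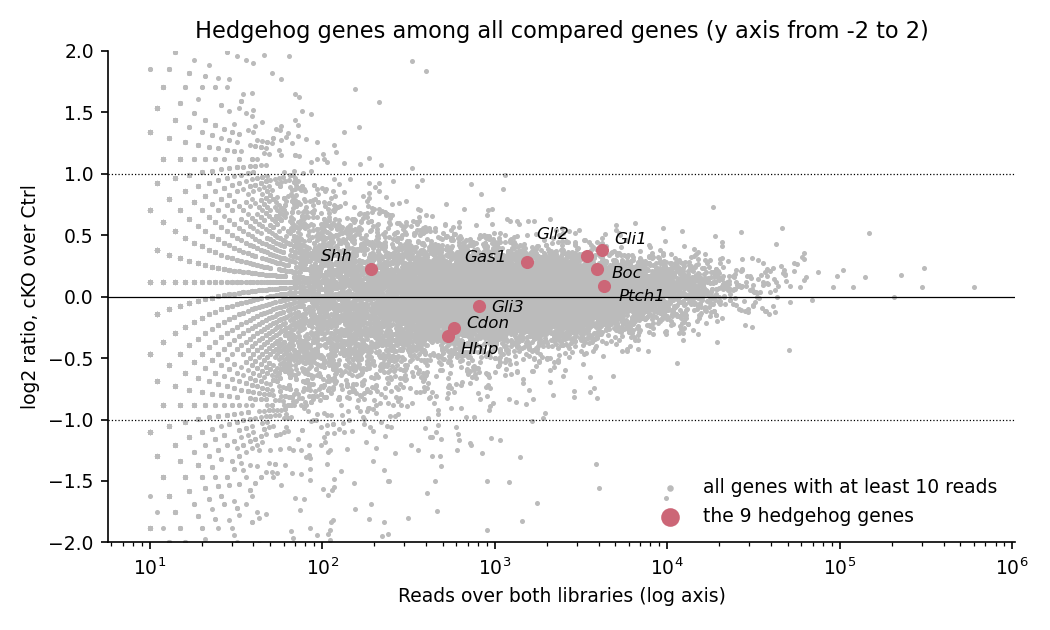
The log2 ratio of cKO over Ctrl for every gene with at least 10 reads (grey) and for the 9 hedgehog genes (red), against reads over both libraries on a log axis. Dotted lines mark 2-fold, and 285 genes lie outside the plotted range; all 9 genes sit inside the dotted lines, with Gli1 and Gli2 toward the upper edge of the grey cloud at their depth.

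The authors' deposited table marked 0 of the 9 genes as significant, and the 622 genes that it marked all had an absolute log2 fold change above 1. By the adjusted p-values in the authors' deposited table, 5 of the 9 fell under 0.05, as did 21.5% of all genes. That share includes genes with few reads, and it was not computed for the deeper genes alone. Among the deeper genes, the counting intervals used here lay above 0 for 25.4% and below 0 for 20.0%. Among the 9 genes, the smallest adjusted p-values in the authors' deposited table were 2.24e-13 for Gli1 and 2.71e-08 for Gli2. Hhip stood at 0.0241, Ptch1 at 0.349 and Shh at 0.446 in the authors' deposited table. With 1 library per genotype, such values compare 2 libraries and not the genotypes.

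Ratios between genes within a library do not depend on how the libraries are scaled, and 10 pairs were compared in this way. There were 1.20 Gli1 reads per Gli2 read in Ctrl and 1.245 in cKO, a 1.03-fold difference (0.944 to 1.13). Per Gli3 read there were 4.41 Gli1 reads in Ctrl and 6.05 in cKO, 1.37-fold more (1.18 to 1.60). Gli2 also gained on Gli3, from 3.66 to 4.85 reads per Gli3 read, or 1.32-fold (1.13 to 1.55). Gli3, whose own level did not differ beyond counting error, held 11.0% of the reads of all 3 genes in Ctrl (Wilson 95% interval 10.1 to 12.04) and 8.40% in cKO (7.63 to 9.25).

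Gli1 stood higher against both other targets among the 9. Its ratio to Ptch1 went from 0.878 to 1.08, a 1.23-fold difference (1.13 to 1.34), and its ratio to Hhip from 6.19 to 10.04, or 1.62-fold (1.35 to 1.95). This last was the widest shift of the 10 pairs. It restates that Gli1 had the highest and Hhip the lowest log2 ratio of the 9 genes. Ptch1 against Hhip differed 1.32-fold (1.10 to 1.59). For Gli1 against its ligand Shh the difference of 1.11-fold (0.824 to 1.51) included 1.

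Among the co-receptors, Boc and Gas1 kept a ratio whose difference included 1, at 0.961-fold (0.852 to 1.08). Cdon departed from both. Boc per Cdon was 1.39-fold higher in cKO (1.16 to 1.67), and Cdon per Gas1 was at 0.690 of its Ctrl value (0.567 to 0.840). The share of Cdon in the reads of the 3 co-receptors was 11.1% in Ctrl (10.05 to 12.3) and 8.17% in cKO (7.26 to 9.19). Intervals excluded 1 for 7 of the 10 pairs, and all 7 also did so at 99%. The pairs share genes, Gli1 above all, so these are not separate results, and no share over other gene pairs was computed.

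**Figure D3:**
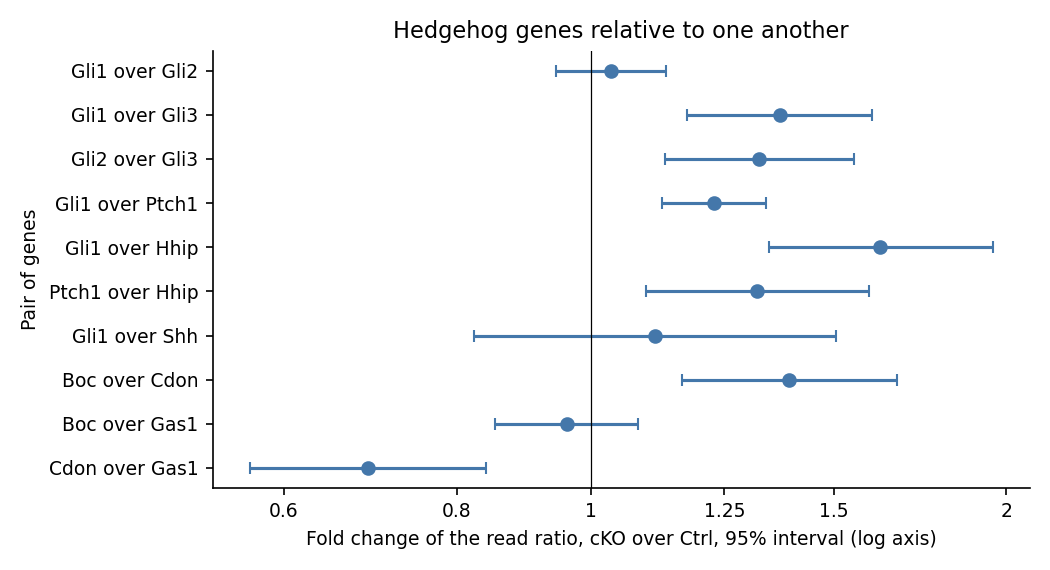
Fold change, cKO over Ctrl, of the read ratio of each pair of genes on a log axis, with 95% exact conditional intervals from 1 library per genotype. Gli1 over Hhip lies farthest to the right at 1.62, and Gli1 over Gli2, Gli1 over Shh and Boc over Gas1 include 1.

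Levels of different genes were set side by side per kilobase of exon, using GENCODE M21 exon lengths. In Ctrl, Boc had 22.7 CPM per kb (21.7 to 23.8) and Gli1 20.2 (19.3 to 21.2), followed by Gas1 at 13.0, Gli2 at 12.2 and Ptch1 at 8.12. Much lower stood Gli3 at 2.39 CPM per kb, Cdon at 2.27, Hhip at 1.80 and Shh at 1.72. The counting intervals of Gas1 and Gli2 overlapped, as did those of Gli3 and Cdon, and those of Shh with both Hhip and Cdon. In cKO, Boc and Gli1 reached the same level within error, at 26.5 CPM per kb (25.4 to 27.7) and 26.3 (25.3 to 27.4). Shh, at 2.01 CPM per kb (1.63 to 2.44), then overlapped with Gli3 at 2.27 and with Cdon at 1.90, and Hhip was lowest at 1.44 (1.26 to 1.64), its upper bound just touching the interval of Shh. The 14.2 kb model of Ptch1 merges several long transcripts, so its level per kilobase is a low estimate if shorter forms prevail.

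The rest of the pathway was read from 4 further lists with 46 genes, 45 of which had at least 10 reads. Their median log2 ratio was -0.02, with intervals above 0 for 13, below 0 for 10 and including 0 for 22. The shares of the deeper genes, 25.4% above 0 and 20.0% below, are near these counts. By the 2-fold rule 0 were higher and 2 lower. This compares with 3.42% of all compared genes past the rule in either direction. Both lower genes came from the ligand release list. Scube2, which encodes a secreted protein that helps Shh leave the producing cell, had 435 Ctrl and 169 cKO reads, a log2 ratio of -1.25 (-1.51 to -0.99). Its relative Scube3 had 326 and 146 reads and stood at -1.04 (-1.33 to -0.75). Choroid plexus markers had a median of -3.83 in the same library, and the part of that tissue in the Scube2 and Scube3 values was not tested.

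Other genes of ligand production differed less. Disp1, the transporter that releases lipid-modified ligand, stood at 0.29 (0.04 to 0.55) with 244 and 275 reads, and the acyltransferase gene Hhat at 0.02 (-0.54 to 0.57). Disp2 had 3562 Ctrl and 2671 cKO reads and stood at -0.30 (-0.37 to -0.22), and Scube1 stood at -0.17 (-0.32 to -0.01). The 7 compared genes of this list had a median of -0.17, with 1 interval above 0 and 4 below. The shares above and below were 17.0% and 15.5% of all compared genes, and 25.4% and 20.0% of the deeper genes. The ligand genes Ihh and Dhh had 10 and 2 reads in Ctrl and 10 and 3 in cKO, so Shh supplied most of the hedgehog ligand reads in both libraries.

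At the receptor level 3 further genes were compared. The intervals of 2 lay below 0, beside 15.5% of all compared genes and 20.0% of the deeper genes. Smo, the transducer, had 2071 reads in Ctrl and 1831 in cKO, a log2 ratio of -0.06 (-0.15 to 0.03). Gpc3, a glypican that competes with Ptch1 for ligand, was at -0.21 (-0.33 to -0.08). Lrp2, an endocytic receptor that binds Shh, had 182 Ctrl reads and 93 cKO reads and stood at -0.85 (-1.23 to -0.48), short of 2-fold.

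Regulators of the Gli proteins mostly had intervals that included 0, as 17 of 25 did. By the 2-fold rule 0 passed, beside 3.42% of all compared genes. Intervals lay above 0 for 5 and below 0 for 3, beside 25.4% and 20.0% of the deeper genes. The median was -0.02, beside 0.02 for the deeper genes. Sufu, which binds and restrains Gli proteins, had 2233 reads in Ctrl and 2030 in cKO and stood at -0.02 (-0.11 to 0.07). Among the rest, Arrb2, a beta-arrestin, stood highest at 0.16 (0.06 to 0.26), followed by the ciliary gene Evc at 0.15 (-0.01 to 0.32). The lowest were Efcab7, an anchor of the Evc complex, at -0.38 (-0.92 to 0.14), and Gpr161, a ciliary receptor that restrains the pathway, at -0.20 (-0.33 to -0.08).

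Hedgehog target genes outside the 9 had a median of 0.15, and the intervals of 7 of 10 lay above 0 and of 1 below, where 25.4% and 20.0% of the deeper genes did. Nkx2-2, a homeobox gene that Shh induces in the ventral neural tube, was the highest at 0.66 (0.47 to 0.86), with 369 and 539 reads, followed by Foxm1, a regulator of mitotic genes, at 0.31 (0.21 to 0.40). The lowest were the cyclin gene Ccnd2 at -0.19 (-0.25 to -0.13) and the survival gene Bcl2 at -0.12 (-0.31 to 0.07). Igf2, one of the 7 at 0.10 (0.07 to 0.13), is also on the list of meningeal fibroblast markers described below. None of the 10 reached 2-fold.

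**Figure D4:**
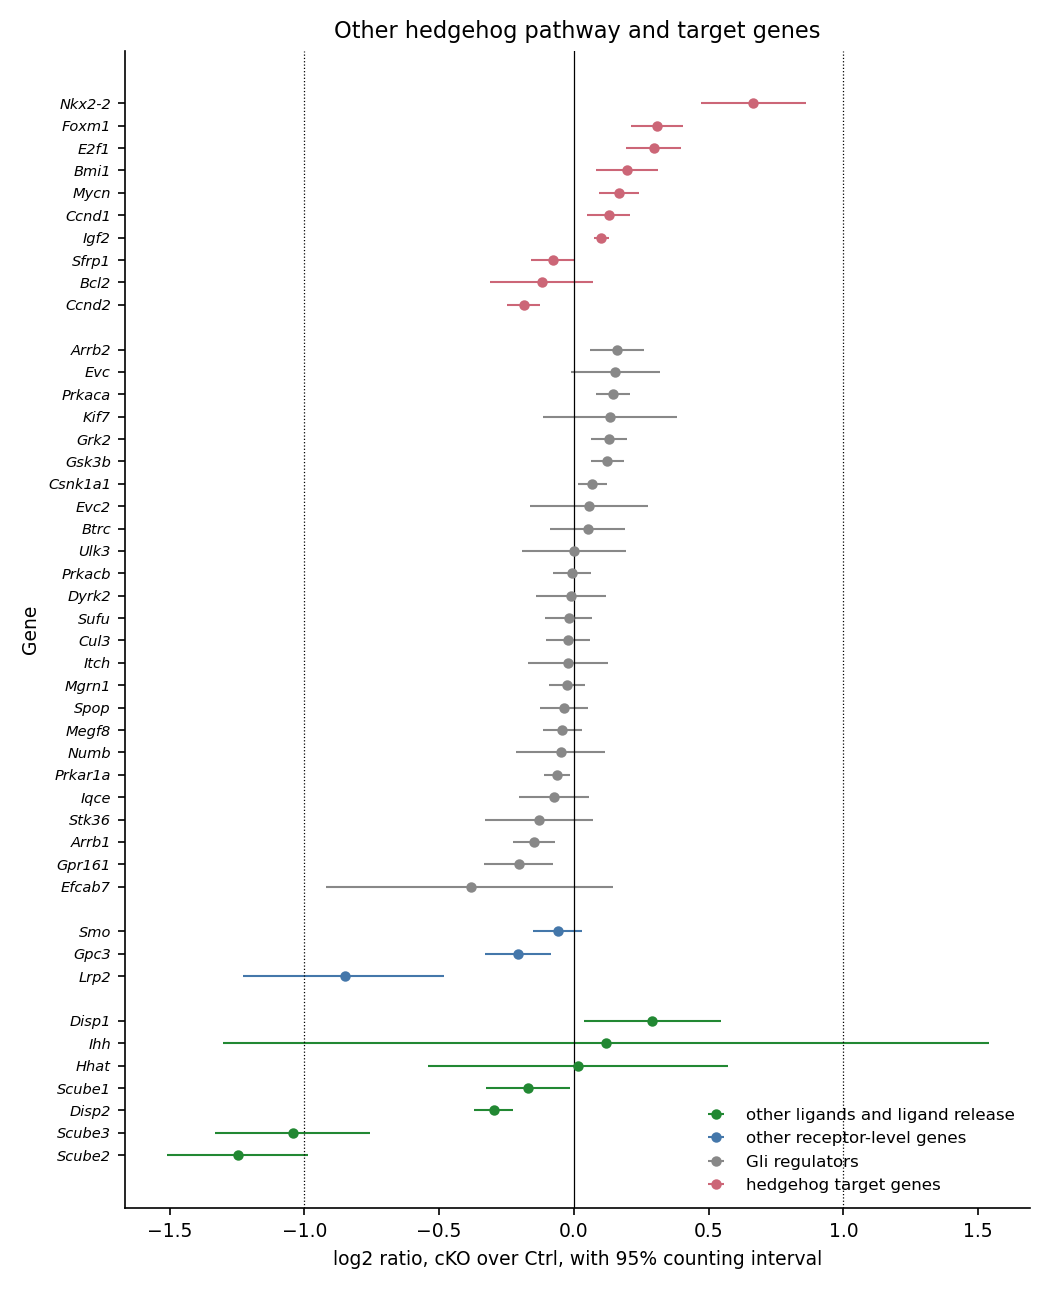
The log2 ratio of cKO over Ctrl, with 95% counting intervals, for the compared genes of the 4 further lists; dotted lines mark 2-fold. Scube2 and Scube3 lie beyond the left line, most Gli regulators have intervals that include 0, and most target genes lie to the right of 0.

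Cell type markers were set beside these ratios, because bulk levels follow the cells collected. Their counts of intervals above and below 0 are to be read beside the 25.4% and 20.0% of the deeper genes. The list of granule neuron progenitor markers had a median of 0.11, with intervals above 0 for 5 of 9 and below 0 for 0. Its genes summed to 2126 CPM in Ctrl and 2223 CPM in cKO. Whether they mark only the progenitors that respond to Shh, and no other cells, was not tested. Atoh1, the factor that specifies these progenitors, had the highest ratio at 0.61 (0.45 to 0.77), with 560 and 789 reads. Nhlh1 followed at 0.43 (0.32 to 0.53). Zic2 at -0.02 and Meis1 at -0.01 were the lowest. Zic1 gave 898 CPM and Zic2 440 CPM of the 2126 CPM in Ctrl, so the sum mostly follows Zic1 and Zic2. Against the summed progenitor markers Gli1 was 1.24-fold higher in cKO (1.17 to 1.33), but against Atoh1 alone it was 0.851-fold (0.750 to 0.965). These comparisons, and the next ones with summed markers, were picked with the values already in view.

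Purkinje cell markers, from cells that make Shh, had a median of 0.33, and the intervals of 7 of 10 lay above 0, beside 25.4% of the deeper genes. Pcp2 at 0.71 (0.51 to 0.90) and Ppp1r17 at 0.64 (-0.13 to 1.44) were the highest and Itpr1 at -0.12 (-0.18 to -0.05) and Lhx5 at -0.11 (-0.25 to 0.03) the lowest. Their sum was 1302 CPM in Ctrl and 1564 CPM in cKO. Per read of these summed markers, Shh was at 0.972 of its Ctrl value (0.724 to 1.31). Shh therefore showed no difference from the Purkinje cell markers that this depth could detect. Whether other cells of the tissue gave part of the Shh reads was not tested.

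The glial list, with astrocyte and Bergmann glia markers, had its median at -0.09, with intervals above 0 for 3 of 10 and below 0 for 6. Slc1a2 and Gfap were the lowest, both at -0.41, and Gdf10 at 0.26 and Aldh1l1 at 0.16 the highest. The list summed to 3672 CPM in Ctrl and 3578 CPM in cKO. Against that sum Hhip was 0.824-fold (0.690 to 0.981). Meningeal fibroblast markers had ratios above 0 for 13 of 13, beside 51.3% of all compared genes. Their median was 0.33, with sums of 2430 CPM in Ctrl and 2932 CPM in cKO. Brainstem neuron markers were scarce, with 357 Ctrl and 192 cKO reads in all. Of these 13 markers, Slc6a4, Tph2 and Fev were not among the listed genes. By the 2-fold rule 4 of the 8 compared were lower, beside 3.42% of all compared genes in either direction. The part of cell composition in the Gli1, Gli2, Boc and Gas1 differences was not tested.

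**Figure D5:**
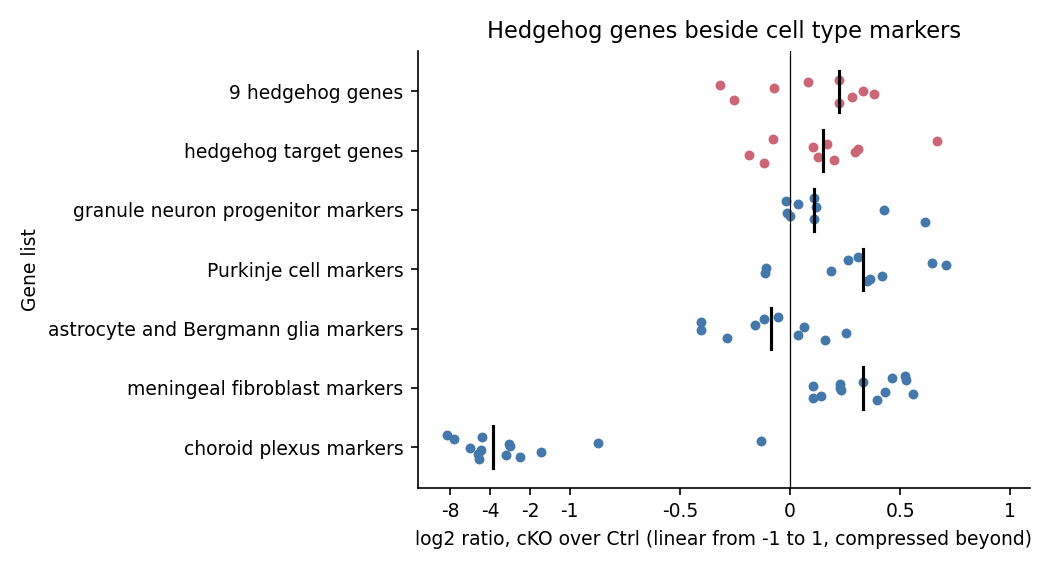
The log2 ratio of cKO over Ctrl for each gene (points) of 7 lists, with the list median as a black bar; the axis is linear between -1 and 1 and compressed beyond. The 9 hedgehog genes have a median of 0.22, between the progenitor median of 0.11 and the Purkinje cell median of 0.33, and the choroid plexus markers lie far to the left.

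Promoter windows from 250 bases before to 50 bases after the gene start were held in the RefSeq table (GRCm38.p6) for 6 of the 9 genes, Ptch1, Hhip, Cdon, Gas1, Gli2 and Gli3. The Gli consensus GACCACCCA was searched on both strands. It occurred in 0 of these 6 windows and in 0.253% of all 32851 windows, and with 1 mismatch allowed in 0 of 6 and in 6.74%. These letters are absent from these windows, and nothing more follows from that.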

How the data were processed

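The deposited table gives raw read counts per gene for the Ctrl and cKO cerebellum, 1 column each, per the file headers. Per the submitters' processing notes, HTSeq 0.6.0, TopHat2 2.0.12, Bowtie2 2.2.3 and build mm9 were used, with no roles stated. The authors' normalized values are on the CPM scale, and all 22423 in each column equalled count times 1 factor within a relative tolerance of 0.0001, with 0 replaced by 0.5. The authors' fold change is the ratio of these, and the authors' log2 column its logarithm. The sources used here do not name the tool behind the authors' p-values. No sample column was left unused.

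Counts were scaled by TMM in edgeR 4.0.16 (R 4.3.3), with factors of 1.01 and 0.990. Intervals were computed with scipy 1.17.1 under Python 3.11.15, with pandas 2.3.3 and numpy 2.4.6 for tables and matplotlib 3.10.9 for figures. Ratios carry Clopper-Pearson 95% intervals, CPM levels Poisson intervals, and pairs conditional odds-ratio intervals. All of these cover counting error only, and since there are no molecular identifiers, reads need not be independent molecules. The ratio was tested on simulated data. Genes with at least 10 reads over both libraries were compared. Named from each further list were the 2 genes at each end of the log2 ratios (minimum 50 reads), and Smo and Sufu by role. Ihh and Dhh, below that minimum, were named as the other ligand genes after their values were seen. Disp2 and Scube1 were also named after their values were seen. A further gene of these lists is not reported here. The list symbol Adrbk1 was matched as Grk2 by RefSeq synonym. Members and lists were chosen with earlier results of these data known. With 1 library per genotype no test across genes was run. Alternatives were 4 other scalings, 99% intervals, other read minimums and a 1.5-fold rule.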

Additional observations from a re-analysis of the deposited data

How the results depend on the processing

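The 4 other scalings were library totals, median of ratios, upper quartile, and TMM without choroid plexus and sex-linked genes. Under them all 36 values of the 9 log2 ratios stayed inside their 95% intervals, and the scaling shift was at most 0.03. Each scaling moves all 9 ratios by the same amount, so the 36 values are not separate checks. The count of genes higher by at least 0.32 on the log2 scale went from 2 to 1 with library totals and to 1 with median-of-ratios factors, since Gli2 lies at the threshold. The count lower by at least as much went from 0 to 1 in the same settings, through Hhip. With 99% intervals the genes with an interval below 0 went from 2 to 0. A 1.5-fold rule still passed 0 of the 9. No paired analysis was possible because each genotype has 1 column of counts and the labels give no replicate number. For the same reason no replicate could be left out. Depth limits Shh most, with 92 and 99 reads.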
